A study of Sus scrofa with 16 samples.

Results

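The interleukin 1 family and the inflammatory cytokines were read in the colonic mucosa and the liver of pigs. A probe was included when the array gave it one of the names IL-1beta, IL1B, IL1A, IL1RN, IL18, IL6, IL10, TNF, OSM or CASP1, or when its description held such a name in brackets. Of the 43603 probes of the array, 17 were included, and they covered 9 of the 10 names and 8 genes, with IL1B and IL1B2 counted as 1, of the 7256 gene symbols found for the array. The name OSM found 0 probes. A probe that the array described as oncostatin M under a LOC number, and a further one described as interleukin-6-like, are given separately and are not counted among the 17.

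The animals were crossbred Duroc × Landrace × Large White barrows, 170 days old at slaughter. One group had eaten a corn and soybean based diet with purified corn starch (CS diet) and the other the same type of diet with purified raw potato starch (RPS diet), a starch that resists digestion in the small intestine, throughout the growing and finishing periods. The 4 groups were Colon_CS, Colon_RPS, Liver_CS and Liver_RPS, with 4 arrays each and 1 pig per array. Tissue pieces hold many cell types, so fewer cells of a type and less RNA per cell cannot be told apart.

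Interleukin 1 alpha and beta are produced mainly by myeloid and epithelial cells and act through a shared receptor, which IL1RN, the interleukin 1 receptor antagonist, blocks. The precursors of interleukin 1 beta and of IL18 are cut to their active forms by CASP1, the protease of the inflammasome, so the mRNA level is only the first step in their production. TNF, IL6 and OSM are further cytokines of the acute inflammatory response, IL6 and OSM acting through receptors that share the IL6ST chain. IL10 restrains inflammatory cytokine production and is known for its role in holding back inflammation of the colon.

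The pig has 2 interleukin 1 beta genes, IL1B and IL1B2, and the RefSeq gene table (Sscrofa11.1) lists both. The 4 interleukin 1 beta probes are shown here because they did not give the same result. The array lists transcripts of both genes for A_72_P463511, an IL1B2 transcript alone for A_72_P611199 and A_72_P440598, and an IL1B transcript alone for A_72_P441479, of which the first 30 bases are given. These assignments are those of the array and were not checked against transcript sequences. Reading from 5′ to 3′, the sequences were as follows.
A_72_P463511: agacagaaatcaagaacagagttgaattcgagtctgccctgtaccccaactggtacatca
A_72_P611199: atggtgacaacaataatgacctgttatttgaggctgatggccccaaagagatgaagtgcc
A_72_P440598: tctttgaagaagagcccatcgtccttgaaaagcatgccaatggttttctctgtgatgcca
A_72_P441479: gagtgtgccaccattataatctctcaccaa
Each of the 17 probes was 60 bases long and had 1 spot per array.

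The 2 IL1A probes are shown because they cover nearly the same stretch. They shared 57 positions, of which 54 were identical. Counted from the 5′ end of A_72_P165276, the differences were G21T, G22C and G28A, which stand in capitals in the 30-base windows below.
A_72_P165276: aggtctgtatGGtagtaGctgggagccctg
A_72_P444799: aggtctgtatTCtagtaActgggagccctg
The oncostatin M probe is shown because its signal in the colon was among the most similar to that of A_72_P463511.
A_72_P488589: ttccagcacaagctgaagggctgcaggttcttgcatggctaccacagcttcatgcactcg

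The share of probes well above background, as marked by the scanner software, per array was 68.8% to 72.2% in Colon_CS, 64.9% to 68.1% in Colon_RPS, 61.1% to 65.9% in Liver_CS and 62.6% to 64.0% in Liver_RPS. Before normalization the arrays had median signals of 56.3 to 70.8 in Colon_CS and 34.2 to 42.5 in Colon_RPS. Each of the 4 slides held the arrays of 1 group only, and the effects of slide and diet cannot be told apart. The tissue labels fitted their markers. Of 7 hepatocyte genes all were higher in the liver, with CYP2E1 and TTR at background on every colon array, and of 11 epithelial genes 10 were higher in the colon, with CDX2, KRT20 and SLC26A3 at background on every liver array.

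Signals well above background were found on all 16 arrays for 9 of the 17, on all 8 colon arrays for 13, on all 8 liver arrays for 9, and on none for A_72_P440598. Signals are given on the log2 scale after quantile normalization within a tissue, for replicates 1 to 4 in order. The genes were chosen by their differences between the diets in the colon, so their colonic values are a description without a test. The levels of different probes are not comparable with each other.

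**Figure D1:**
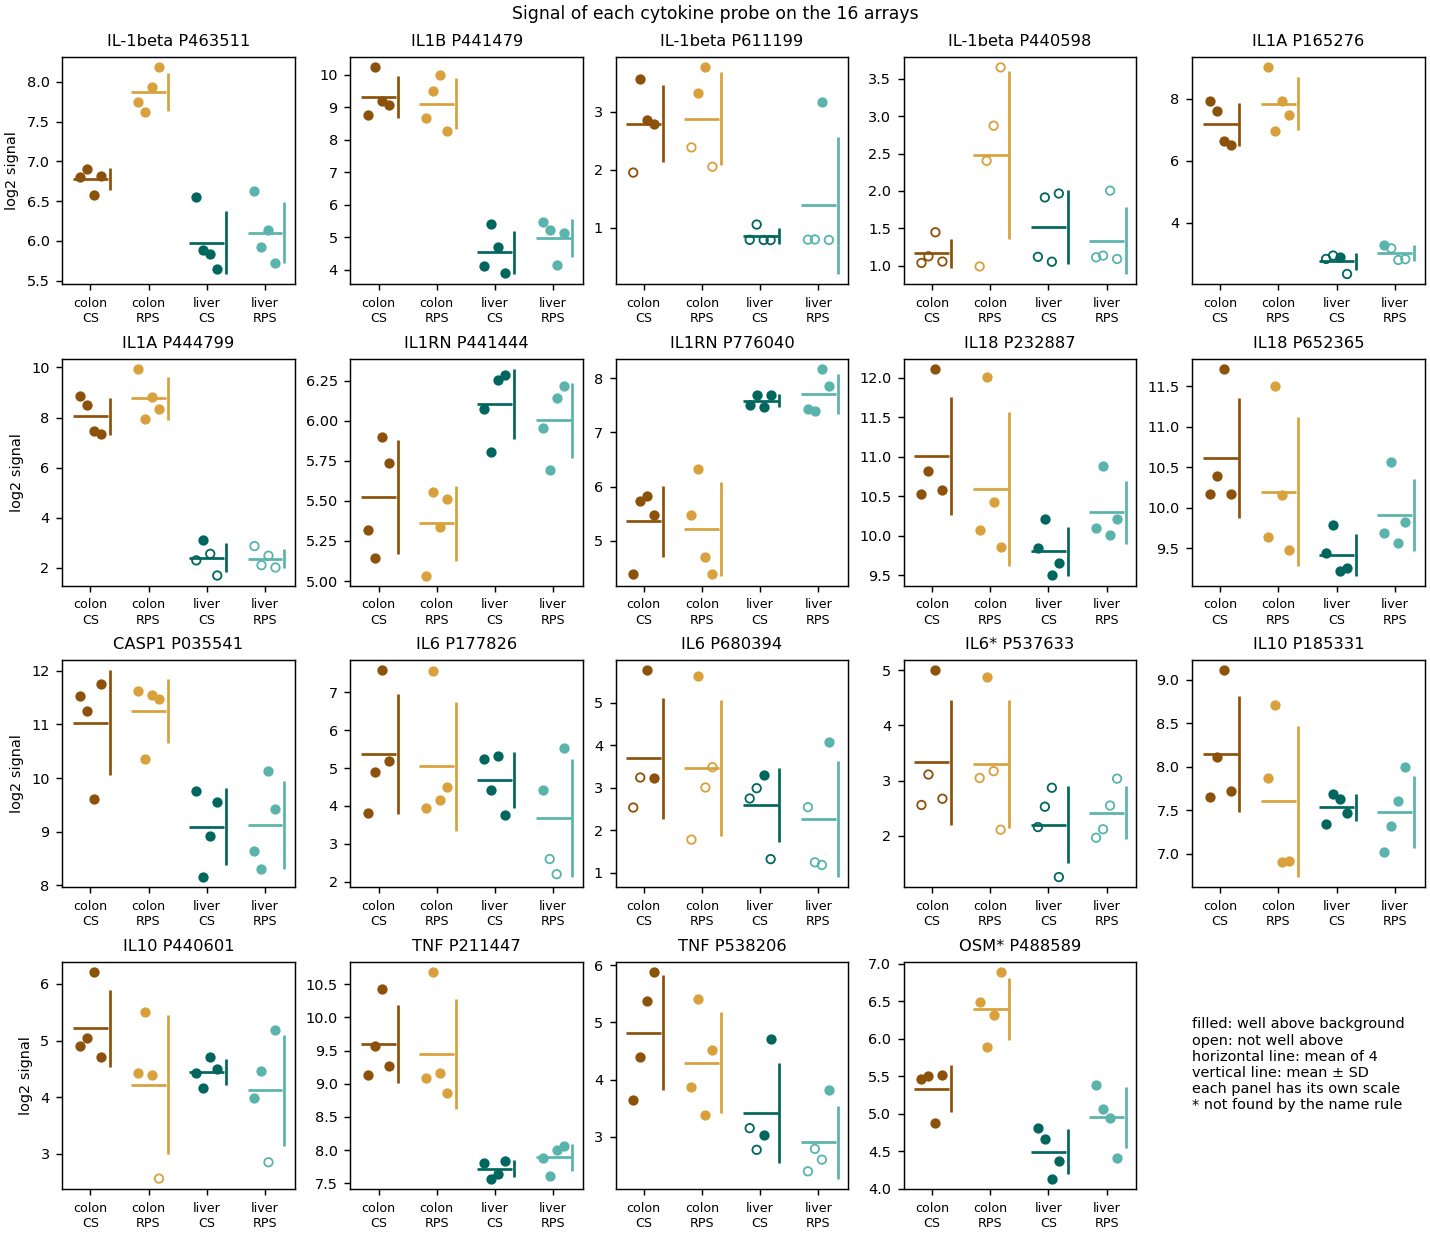
Log2 signal (y axis, own scale in each panel) of the 17 probes and of 2 probes of listed genes that the names did not find (marked *), in the 4 groups of 4 arrays (x axis). Points are arrays, filled where the probe was well above background, horizontal lines are means and vertical lines are mean ± SD. In the colon the CS and RPS arrays are separate for IL-1beta P463511 (6.58 to 6.91 against 7.63 to 8.18) and for OSM, and overlap in the other panels.

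In the colon, interleukin 1 beta was higher with the RPS diet by the probe listed for both genes and not by the probe listed for IL1B alone. Which of the genes gave the signal of a probe was not tested. A_72_P463511 measured 6.81, 6.91, 6.58 and 6.81 in Colon_CS and 7.75, 7.63, 7.94 and 8.18 in Colon_RPS. Every RPS array was above every CS array, and the difference was 1.10 (SE 0.15), a 2.14-fold higher signal. With normexp background correction the difference was 0.68. A_72_P441479, for IL1B, measured 8.77, 10.23, 9.20 and 9.06 in Colon_CS and 8.67, 9.51, 9.99 and 8.28 in Colon_RPS. The groups overlapped, with a difference of -0.20 (SE 0.46).

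The 2 probes listed for IL1B2 alone lay near or below background. A_72_P611199 measured 1.95, 3.57, 2.86 and 2.78 in Colon_CS, where 3 of 4 arrays were well above background, and 2.38, 3.32, 3.76 and 2.05 in Colon_RPS, where 2 of 4 were. Its groups overlapped and differed by 0.09 (SE 0.48). A_72_P440598 measured 1.04, 1.13, 1.45 and 1.06 in Colon_CS and 0.99, 2.40, 2.87 and 3.65 in Colon_RPS. The difference of 1.31 (SE 0.52) rested on signals that were not well above background on any array, and Colon_RPS replicate 1 was the lowest of all 8.

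Not all of the interleukin 1 beta probes agreed across the colon arrays. Over the 8 arrays, which share their RNA and slides, the signals of A_72_P441479 and A_72_P611199 had a Pearson correlation of 0.94, whereas A_72_P463511 had one of -0.20 with A_72_P441479 and 0.00 with A_72_P611199. With A_72_P440598, which was not well above background on any array, A_72_P463511 had one of 0.77, and both were higher on average with RPS. A_72_P441479 and A_72_P611199 were each highest in Colon_CS in replicate 2 and highest in Colon_RPS in replicate 3. For A_72_P463511 the highest arrays of the groups were replicate 2 and replicate 4.

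IL1A was higher on average with RPS by both of its probes, with overlapping groups. A_72_P165276 measured 7.92, 7.61, 6.64 and 6.50 in Colon_CS and 9.003, 6.96, 7.92 and 7.48 in Colon_RPS, a difference of 0.67 (SE 0.51). A_72_P444799 measured 8.86, 8.51, 7.45 and 7.35 in Colon_CS and 9.94, 7.94, 8.84 and 8.33 in Colon_RPS, a difference of 0.72 (SE 0.53). The probes ranked the arrays alike (correlation 1.00 over the 8 arrays), and Colon_RPS replicate 1 was the highest by both.

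The antagonist IL1RN differed by less than its spread. A_72_P441444 ranged from 5.14 to 5.90 in Colon_CS and from 5.03 to 5.55 in Colon_RPS, a difference of -0.16 (SE 0.21). A_72_P776040 ranged from 4.39 to 5.83 in Colon_CS and from 4.39 to 6.32 in Colon_RPS, a difference of -0.14 (SE 0.50). The probes had the same sign but did not order the arrays alike, with a correlation of 0.22.

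IL18, a member of the interleukin 1 family that stimulates interferon gamma production, was lower on average with RPS by both probes, by -0.42 (SE 0.56) for A_72_P232887 and -0.42 (SE 0.54) for A_72_P652365. The first measured 10.52, 10.81, 12.11 and 10.58 in Colon_CS and 10.07, 12.002, 10.42 and 9.86 in Colon_RPS. One array of each group, Colon_CS replicate 3 and Colon_RPS replicate 2, stood above the rest by both probes, which correlated at 1.00. CASP1 measured 11.53, 11.26, 9.61 and 11.75 in Colon_CS and 11.62, 10.36, 11.54 and 11.48 in Colon_RPS, with a difference of 0.21 (SE 0.52). Here the same 2 arrays were the lowest of their groups.

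The pattern of those arrays recurred in IL6, IL10 and TNF. IL6, by A_72_P177826, measured 3.82, 4.90, 7.57 and 5.18 in Colon_CS and 3.95, 7.57, 4.15 and 4.50 in Colon_RPS. Colon_CS replicate 3 and Colon_RPS replicate 2 had the same rounded signal, and the difference of the means was -0.33 (SE 1.06). A_72_P680394, well above background on 2 of 4 CS and 1 of 4 RPS arrays, gave -0.22 (SE 0.97). The interleukin-6-like probe A_72_P537633 was well above background in the colon on these 2 arrays only.

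IL10 was lower on average with RPS by both probes. A_72_P185331 measured 7.65, 8.11, 9.11 and 7.72 in Colon_CS and 7.87, 8.71, 6.90 and 6.92 in Colon_RPS, a difference of -0.55 (SE 0.50). A_72_P440601 gave -0.995 (SE 0.64), with a range of 4.71 to 6.21 in Colon_CS and of 2.56 to 5.51 in Colon_RPS. TNF, by A_72_P211447, measured 9.12, 9.58, 10.43 and 9.27 in Colon_CS and 9.09, 10.69, 9.16 and 8.85 in Colon_RPS, a difference of -0.15 (SE 0.47). By A_72_P538206 the difference was -0.52 (SE 0.61), and Colon_CS replicate 4 was the highest array.

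Colon_CS replicate 3 was the highest of its group for 10 of the 17 probes and the lowest for 2, and Colon_RPS replicate 2 was the highest for 10 and the lowest for 4. The same arrays were high for markers of B and plasma cells, by a median of 3.06 and 2.44 log2 units above the colon mean over 5 genes, where the other colon arrays lay between -2.20 and 0.89. They were low for the 11 epithelial genes, by -1.54 and -0.89, where the others lay between 0.17 and 0.70. For T cells (9 genes) they stood at 1.04 and 0.43 and the others between -1.19 and 0.26. The part of these cell types in the cytokine signals was not tested. Without these arrays the differences were 1.12 for A_72_P463511, -0.37 for A_72_P441479, 0.79 and 0.80 for IL1A, -0.43 for IL6 (A_72_P177826), -0.60 and -1.09 for IL10, -0.53 and -0.49 for IL18, -0.29 for TNF (A_72_P211447) and 0.04 for CASP1.

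**Figure D2:**
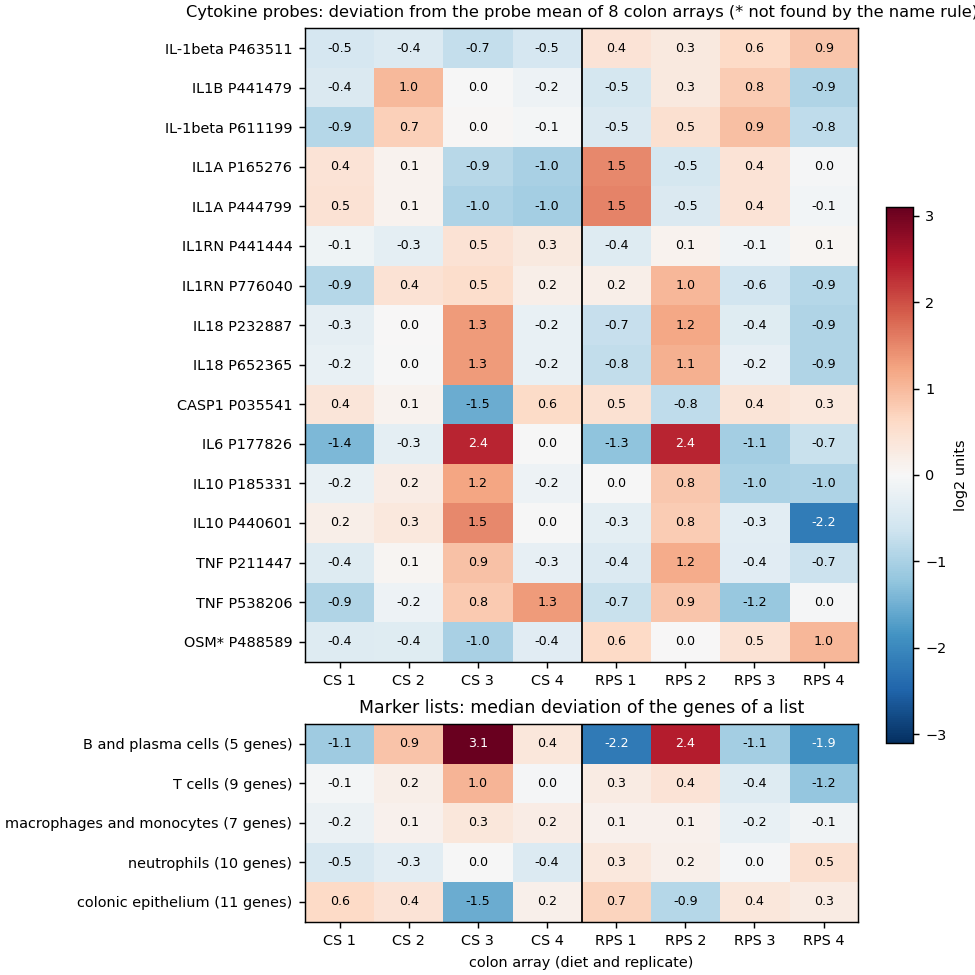
Deviation, in log2 units, of 15 of the 17 probes and of OSM (marked *) from their mean over the 8 colon arrays (top), and the median deviation of the genes of 5 marker lists (bottom), with arrays as columns and the diets on either side of the black line. A_72_P440598 and A_72_P680394 are left out because they were rarely well above background. Array CS 3 and array RPS 2 are red for IL6, IL10, IL18, TNF and the B and plasma cell genes (3.06 and 2.44) and blue for CASP1 and epithelium.

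OSM, a cytokine of the IL6 family made by neutrophils and macrophages, was measured by A_72_P488589. It gave 5.46, 5.50, 4.87 and 5.51 in Colon_CS and 6.49, 5.89, 6.32 and 6.89 in Colon_RPS. The groups did not overlap, and the difference was 1.06 (SE 0.25), or 0.47 with normexp background correction. OSM also came second among the probes whose signal was most similar to A_72_P463511 over the 8 colon arrays, out of 11531 named probes with a clear signal on each of them. The 5 most similar were OSBP2 with a Pearson correlation of 0.97, OSM with 0.95, RSPH14 with 0.95, CLDN15 with 0.95 and SPRY2 with 0.95. Because the diet groups were apart for A_72_P463511, such a correlation largely repeats the diet difference. Within the diets, after each group mean was removed, the correlations were 0.92 for OSBP2, 0.88 for OSM, 0.50 for RSPH14, 0.34 for CLDN15 and 0.71 for SPRY2. These 5 were picked on the same 8 arrays, and within-diet correlations of the other probes are not given, so nothing is read from these values.

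Of 10 measured neutrophil markers, 3 passed an unadjusted p of 0.05 with a fold above 1.5 in the colon, all of them higher with RPS. They were the calcium-binding protein S100A8 (1.63 log2 units), the antimicrobial peptide PR39 (1.57) and the antimicrobial peptide PMAP-23 (1.47). Among all probes 2.94% passed, 1.62% with RPS higher. The other 7 did not pass, with values of 0.81 for S100A9, 0.80 for NPG4, 0.59 for MPO, 0.39 for S100A12, 0.15 for CXCR2, -0.09 for ELANE and -0.98 for LTF. The median over the 10 genes was 0.69, the summed signal ranged from 9.57 to 10.17 on the log2 scale in Colon_CS and from 9.61 to 10.19 in Colon_RPS, and MPO was at background on all 8 colon arrays. None of the 7 macrophage and monocyte markers passed, with a median of -0.17 and summed signals of 15.87 to 16.30 in Colon_CS and 15.95 to 17.51 in Colon_RPS. LYZ was the brightest of them in the colon and weighs most in this sum. It differed by 0.64, and the other markers lay between -0.42 (AIF1) and 0.001 (CD14). The part of these cells in the IL-1beta and OSM differences was not tested.

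Across the colon, 2 of the 17 probes, A_72_P463511 and A_72_P440598, had an unadjusted p under 0.05 and a fold above 1.5, where 2.94% of all probes did and 1.62% did with the signal higher with RPS, as it was for both. An unadjusted p alone was passed by 5.42% of all probes. Of the 17, A_72_P463511 had groups that did not overlap, where 6.52% of all probes did, 5.08% with RPS higher. The median difference of the 17 was -0.16, and that of all probes 0.01. As the genes were listed from this comparison, nothing is read from these counts.

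In the liver the diets were compared with a test, since that comparison had not been used to list the genes. None of the 17 probes passed an unadjusted p of 0.05 with a fold above 1.5, where 3.56% of all probes did, and 0 of the 17 had an unadjusted p under 0.05, where 7.59% did. Groups that did not overlap were found for 0 of the 17 and 4.45% of all probes. The median difference was 0.03, with a range from -0.9995 to 0.53.

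**Figure D3:**
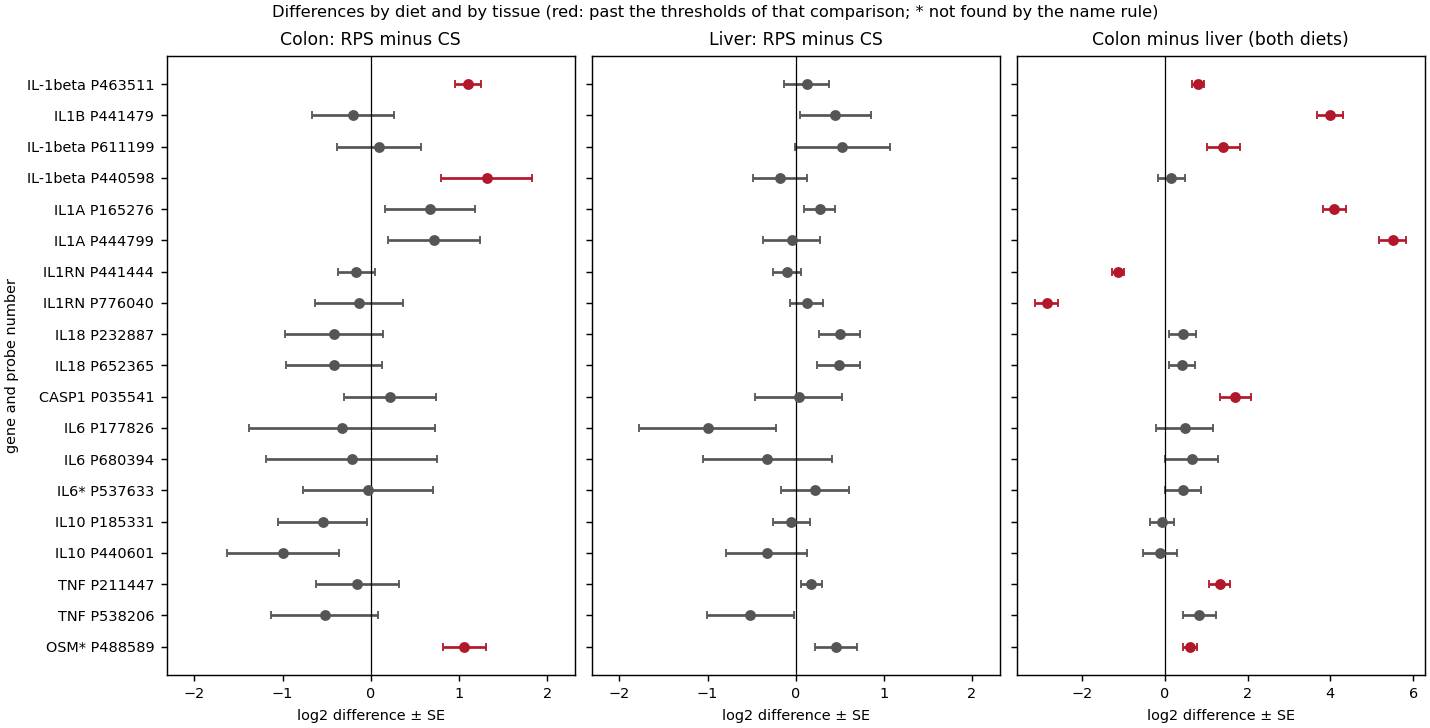
Log2 difference ± SE (x axis) of each probe (y axis) between the RPS and CS diets in the colon and in the liver, and between colon and liver over both diets. Red points are past the thresholds (diets, unadjusted p under 0.05 and fold above 1.5, and tissues, adjusted p under 0.05 and fold above 1.5), which in the colon serve as a description for these genes. The liver panel has no red point, and the tissue panel has its largest differences at IL1A and IL1B on the right and at IL1RN on the left.

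For interleukin 1 beta the liver groups overlapped by every probe. A_72_P463511 measured 6.55, 5.88, 5.84 and 5.64 in Liver_CS and 6.62, 5.93, 6.14 and 5.73 in Liver_RPS, a difference of 0.13 (95% confidence interval -0.47 to 0.72). IL1B, by A_72_P441479, measured 4.13, 5.41, 4.69 and 3.92 in Liver_CS and 5.46, 5.23, 4.14 and 5.13 in Liver_RPS, a difference of 0.45 (95% interval -0.49 to 1.39).

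IL18 was higher on average with RPS by both probes, without passing the test. A_72_P232887 measured 9.84, 10.21, 9.503 and 9.66 in Liver_CS and 10.10, 10.88, 10.005 and 10.22 in Liver_RPS. Liver_CS replicate 2 lay above 2 of the RPS arrays, at 10.10 and 10.005, and the difference was 0.50 (SE 0.23, 95% interval -0.05 to 1.04, limma adjusted p = 0.70, exact two-sided permutation p = 0.0857). A_72_P652365 gave 0.49 (95% interval -0.08 to 1.05), with a correlation of 0.99 between the 2 probes over the 8 liver arrays. Without Liver_CS replicate 2 the differences were 0.63 and 0.60 and both passed the unadjusted threshold, with limma adjusted p-values of 0.61 and 0.65.

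IL6 was lower on average with RPS, with a wide spread. A_72_P177826 measured 5.23, 4.42, 5.32 and 3.75 in Liver_CS and 4.41, 2.60, 2.20 and 5.52 in Liver_RPS, where only 2 of 4 arrays were well above background. The difference was -0.9995 (95% interval -2.82 to 0.82, limma adjusted p = 0.84). Without Liver_RPS replicate 4 it was -1.61 and passed the unadjusted threshold, with a limma adjusted p of 0.54. A_72_P680394 gave -0.32 and was well above background on 1 array of each liver group.

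TNF, IL10 and IL1RN did not pass in the liver by either probe. The differences were 0.18 (95% interval -0.11 to 0.47) for A_72_P211447, -0.05 (-0.54 to 0.44) for A_72_P185331 and -0.10 (-0.47 to 0.26) for A_72_P441444. By the other probe of each gene they were -0.51 (-1.66 to 0.63) for TNF (A_72_P538206), -0.33 (-1.40 to 0.74) for IL10 (A_72_P440601) and 0.13 (-0.31 to 0.56) for IL1RN (A_72_P776040), so that the probes of TNF and of IL1RN had opposite signs and those of IL10 the same one. CASP1 ranged from 8.16 to 9.76 in Liver_CS and from 8.32 to 10.14 in Liver_RPS and differed by 0.03 (95% interval -1.12 to 1.19). OSM, by A_72_P488589, gave 0.46 (95% interval -0.09 to 1.01, limma adjusted p = 0.72), and without Liver_RPS replicate 4 it gave 0.64 and passed the unadjusted threshold, with a limma adjusted p of 0.43. IL1A could not be compared between the diets, since its probes were well above background on 2 and 1 of the 8 liver arrays, and IL1B2 (A_72_P611199) was so on 1.

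The tissues were compared with a test. Over both diets, on 16 arrays normalized together, 9 of the 17 probes passed an adjusted p of 0.05 with a fold above 1.5, 7 of them higher in the colon and 2 lower, where 42.2% of all probes passed, 23.4% higher and 18.7% lower. The 7 were the probes of IL1A, IL1B, IL-1beta (A_72_P463511 and A_72_P611199), CASP1 and, of the TNF probes, A_72_P211447, and the 2 were those of IL1RN. The call of A_72_P463511 includes the high Colon_RPS signals that were known when the genes were chosen, and its Colon_CS and liver arrays overlapped. Scaling within the tissues instead moved the median of all probes from 0.01 to -0.19 and the share of calls higher in the colon from 55.6% to 41.5%, but turned the direction of none of the 9. Each tissue spans 2 slides, and with the slide as a random block 9 of the 17 also passed. With normexp background correction 6 passed, and A_72_P463511 (0.46), A_72_P611199 (0.10) and A_72_P441444 (-0.50) fell below the fold threshold.

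The agonists were higher in the colon. IL1A, by A_72_P165276, was at 7.28 ± 0.84 (SD, n = 8) in the colon and 3.18 ± 0.28 in the liver, a difference of 4.10 (SE 0.29, limma adjusted p = 2.18e-08), and by A_72_P444799 at 8.20 ± 0.86 and 2.69 ± 0.45, a difference of 5.50 (SE 0.32). No liver array reached the lowest colon array with either probe, and most liver signals were not well above background. With normexp background correction the differences were 1.62 and 2.27, still past the thresholds. IL1B, by A_72_P441479, was at 9.02 ± 0.68 in the colon and 5.03 ± 0.62 in the liver, a 15.9-fold higher signal (log2 difference 3.99, SE 0.32, limma adjusted p = 9.93e-08), with a clear signal on all 16 arrays. The difference was 2.44 with normexp.

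A_72_P463511 gave a much smaller tissue difference for interleukin 1 beta than A_72_P441479 did. Its group means on this scale were 6.53 in Colon_CS, 7.66 in Colon_RPS, 6.23 in Liver_CS and 6.35 in Liver_RPS, and the tissues differed by 0.80 (SE 0.15, limma adjusted p = 4.27e-04). The genes were chosen by their colon diet differences and Colon_RPS is part of this value, so the p-value is not free of that choice. In the order of the groups Colon_RPS came first, without overlap with any other group. Colon_CS and the liver groups overlapped, as did the liver groups with each other.

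IL1RN was the reverse of the agonists. A_72_P776040 was at 5.02 ± 0.72 (SD, n = 8) in the colon and 7.86 ± 0.26 in the liver, 7.18-fold lower in the colon (log2 difference -2.84, SE 0.28, limma adjusted p = 7.78e-07), a difference that was -1.46 with normexp. A_72_P441444 was at 5.17 ± 0.30 and 6.30 ± 0.21 (log2 difference -1.13, SE 0.13). By both probes every colon array was below every liver array, and the probes differed in the size of the difference. The liver is a known source of this antagonist, which hepatocytes release as an acute-phase protein.

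CASP1 was 3.27-fold higher in the colon (log2 difference 1.71, SE 0.37, limma adjusted p = 0.0014), with 11.01 ± 0.78 (SD, n = 8) against 9.30 ± 0.70. TNF was 2.51-fold higher by A_72_P211447 (log2 difference 1.33, SE 0.25, limma adjusted p = 4.98e-04), and every colon array was above every liver array. By A_72_P538206 TNF differed in the same direction by 0.84 (SE 0.41) and did not pass (limma adjusted p = 0.0996), but passed without Liver_CS replicate 4 (1.05) or Colon_CS replicate 1 (1.03). IL10, IL18 and IL6 did not pass by either probe, with differences of -0.07 and -0.11 for IL10 (both 0.01 with normexp), 0.44 and 0.41 for IL18 and 0.48 and 0.65 for IL6. Without Colon_CS replicate 3 and Colon_RPS replicate 2, those of IL18 were 0.00 and -0.01 and those of IL6 -0.32 and -0.07. With all 16 arrays normalized together, OSM had group means of 5.07 in Colon_CS, 6.14 in Colon_RPS, 4.77 in Liver_CS and 5.22 in Liver_RPS. Its tissue difference includes the colon diet difference by which the genes were chosen, so its p-value is not free of that choice. OSM was 1.53-fold higher in the colon (limma adjusted p = 0.00915), just past the fold threshold, and passed in 22 of 28 settings. It fell below the fold threshold with normexp (log2 difference 0.24) and without Liver_CS replicate 3, Liver_RPS replicate 4 or Colon_RPS replicate 4 (0.56, 0.53 and 0.53), and missed the adjusted p of 0.05 by the methods' test and with the slide as a random block.

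Around these cytokines, 167 further probes of 79 genes were examined in lists of receptors, inflammasome and processing genes, signalling proteins, induced genes and acute-phase proteins. In the colon 0 of the 167 passed an unadjusted p of 0.05 with a fold above 1.5 (smallest limma adjusted p = 0.72), where 2.94% of all probes did. The count was 1 without Colon_CS replicate 1 or replicate 3 or without Colon_RPS replicate 3, 3 without Colon_RPS replicate 4, and 6 without Colon_RPS replicate 2. For the 19 genes that interleukin 1 or TNF induce, such as CXCL8, PTGS2 and ICAM1, the median of 42 probes was -0.25. For 19 genes of the signalling path from the interleukin 1 and Toll-like receptors to NF-kB, such as MYD88 and NFKBIA, the median of 30 probes was -0.02.

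In the liver 2 of the 167 probes passed, both for genes that interleukin 1 or TNF induce and both higher with RPS, where 3.56% of all probes passed, 1.8% of all being higher. They were SELE, the endothelial adhesion molecule E-selectin (limma adjusted p = 0.45), and TNFAIP6, a secreted hyaluronan-binding protein (limma adjusted p = 0.62), named because they were the 2 found. The folds that passed, 2.96 and 2.36, rested on Liver_CS signals that were at background on every array. Set against the dimmest clear signals of those arrays, the probes were at least 1.10-fold and 1.46-fold higher, below the fold threshold. They were well above background on 2 and 3 of the 8 liver arrays, and in both genes the other probe did not pass. The count was 6 without Liver_CS replicate 1, 4 without Liver_CS replicate 3 and 8 without Liver_RPS replicate 4. The median over the 42 probes of the list was 0.30. Of the 36 probes of acute-phase proteins, which hepatocytes make in response to IL6 and interleukin 1, 0 passed, and their median was -0.04. The difference between the diet effects in the colon and in the liver passed the test for 0 of the 167 probes (smallest limma adjusted p = 0.75) and for 0.00229% of all probes.

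**Figure D4:**
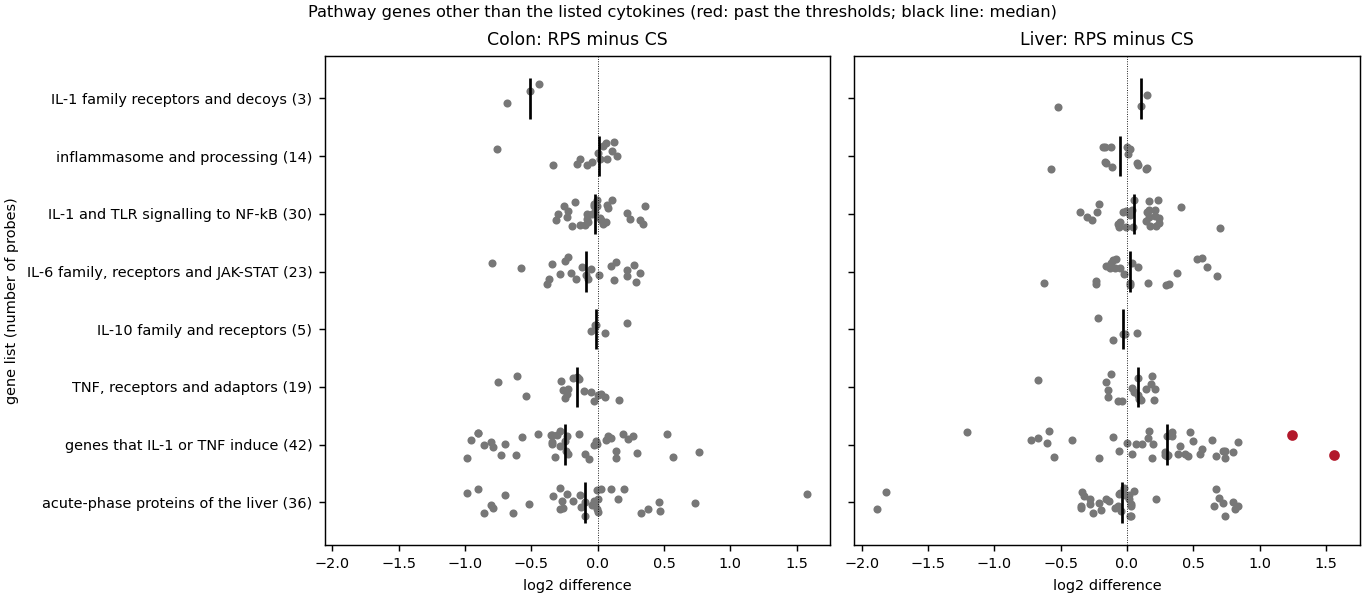
Log2 difference between the RPS and CS diets (x axis) in the colon (left) and the liver (right) for the probes of 8 gene lists (y axis, number of probes in brackets) without the listed cytokines. Points are probes, red where they passed an unadjusted p of 0.05 with a fold above 1.5, and black lines are medians. There is no red point in the colon, and 2 in the liver, both among the genes that interleukin 1 or TNF induce.

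Between the tissues 114 of the 167 probes (68.3%) passed, 63 higher and 51 lower in the colon, where 42.2% of all probes passed, 23.4% higher and 18.7% lower. All 36 probes of acute-phase proteins were lower in the colon. These genes were listed as products of the liver, so their direction could be foreseen, and they are part of the 51 and of the 68.3%. The largest differences of all 167 were theirs, among them FGG, the fibrinogen gamma chain (A_72_P293239, at least 33831-fold lower after quantile normalization, at background on every colon array), haptoglobin (HP, A_72_P178006, -13.84, SE 0.11), ITIH4 (A_72_P706463, -12.08, SE 0.22) and serum amyloid SAA2 (A_72_P789244, -10.76, SE 0.51). Their size depended on the processing. Over 27 other settings the smallest log2 differences were -11.19 for this FGG probe, -11.65 for HP, -10.65 for ITIH4 and -9.54 for SAA2. The other probes of the 15 with the largest differences were 4 more of HP, 3 of CP, 1 more each of FGG and ITIH4, and those of FGA and ORM1.

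Of the 42 probes for genes that interleukin 1 or TNF induce, 24 were higher in the colon and 5 lower, beside 23.4% and 18.7% of all probes, the 5 being those of SAA3, which is also an acute-phase protein. The list of the inflammasome and of cytokine processing had 14 probes of 4 genes. Of these probes 12 were higher in the colon, 9 of TXNIP and 3 of CASP8, and 0 were lower. The probes of the other genes, NLRP3 and P2RX7, did not pass. The list of interleukin 1 family receptors and decoys had 3 probes, for 2 of its 10 genes, and no probe was found for IL1R1, IL1R2 or IL1RAP. The 2 probes that passed were both of IL18R1, the receptor of IL18, and higher in the colon. With A_72_P302949, at background on every liver array, the signal was at least 1.76-fold higher. A_72_P463714 was well above background on 6 of the 16 arrays. In the IL10 list 3 of 5 passed, all higher in the colon, 2 for the receptor chain IL10RB (1.85 and 1.64) and 1 for IL20RB (1.46). In the IL6 list 5 of 23 were higher and 10 lower, with IL6ST, the signal-transducing receptor chain, lower in the colon by -1.25 and -1.62, IL6R lower by all 3 probes and STAT3, the transcription factor of this pathway, lower by all 4. Of the 19 probes of the TNF list, 7 were higher and 2 lower, and of the 30 of the NF-kB path 10 were higher and 3 lower.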

How the data were processed

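Colonic mucosa and liver RNA was hybridized to 16 one-colour Agilent porcine arrays. Per the file headers, the authors' scanner software (Agilent Feature Extraction 10.7, as in the submitters' processing notes) wrote intensity values with the background subtracted, not normalized between arrays, and the deposited series matrix of log2 values was quantile normalized by the authors. Replicates are separate pigs; whether 1 pig gave both tissues is not stated in the labels. The number of arrays limits the precision.

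After removal of control spots, and with outlier spots taken as missing, log2 signals were quantile normalized within a tissue (over all 16 arrays for tissue comparisons), averaged per probe and fitted with limma 3.58.1 (lmFit, eBayes) in R 4.3.3. Benjamini-Hochberg adjustment ran over all 43603 probes. Diet comparisons used an unadjusted p of 0.05 and a fold of 1.5, the tissue comparison an adjusted p of 0.05 and the same fold, and the difference of the diet effects an adjusted p of 0.05. With 4 arrays per group, the smallest exact two-sided permutation p is 0.0286. In the colon 0 of all probes had an adjusted p under 0.05 (2362 had an unadjusted one).

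The cytokines and the gene lists were chosen with earlier results of these data known. A symbol was found for 14685 probes. For lists, up to 15 probes with the largest called difference and signal above background were named per comparison, and receptor, liver and inflammasome probes outside this rule were chosen after their values were seen. Markers used 1 probe per gene, the brightest. For a fold given as at least, signals of the group at background were raised to the dimmest probe well above background on that array. Such folds hold for the quantile normalized values only. Alternatives were scaling to the 75th percentile, another set of arrays for the normalization, normexp (offset 50), the authors' values, outliers kept, only probes above background, the methods' t-test, an intensity trend, all 16 arrays in 1 fit, a replicate block, the slide as a random block (tissues), an adjusted p as the threshold (diets) and each array left out. The fit was tested on simulated data.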

Additional observations from a re-analysis of the deposited data

Results flagged for a closer look

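In 51 groups of 4 arrays in which a probe of a listed gene was well above background on every array, the gap between the outermost array and its neighbour, divided by the range of the group, was set against the critical value of Dixon's test, 0.829, which chance passes in about 1 group in 20. It was passed 5 times, each time in the colon and each time by Colon_CS replicate 3 or Colon_RPS replicate 2. IL18 (A_72_P652365) in Colon_CS replicate 3 stood at 11.71, with the next array at 10.40. OSM in Colon_CS replicate 3 stood at 4.87, below the next at 5.46. In Colon_RPS replicate 2, IL6 (A_72_P177826) stood at 7.57 with the next at 4.50, TNF (A_72_P211447) at 10.69 with the next at 9.16, and CASP1 at 10.36 with the next above it at 11.48. The markers of B and plasma cells were high and those of epithelium low on both arrays, and their part in these values was not tested.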

How the results depend on the processing

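Leaving out 1 array at a time gave 1067 to 2635 called probes in the colon (1283 with all arrays, 2635 without Colon_RPS replicate 2), 1408 to 2029 in the liver (1554), 18116 to 18344 between the tissues (18379) and 1 to 6 for the difference of the diet effects (1). Of the 17 probes it gave 1 to 2 in the colon, 0 to 2 in the liver and 9 to 10 between the tissues, and of the 167 probes of the lists 0 to 6 in the colon, 2 to 8 in the liver and 112 to 116 between the tissues. Leaving out Colon_CS replicate 3 and Colon_RPS replicate 2 together, chosen after seeing the data, gave 2385 called probes in the colon, 1 of the 17 and 6 of the 167.

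Normexp gave 172 called probes in the colon, 220 in the liver, 10833 between the tissues and 0 for the difference of the diet effects, with 1 of the 17 in the colon and 0 of the 167 in the liver. With only probes above background the counts were 779, 965 and 0 for colon, liver and the difference, 1 of the 17 in the colon, and 1 of the 167 in the colon and in the liver. Scaling to the 75th percentile gave 1968 in the colon, 69% of them higher with RPS against 55.2%, 4 of the 167 there, and 0 for the difference. An adjusted p under 0.05 gave 0 in the colon and 1 in the liver. The methods' t-test gave 1 of the 17 in the colon and 1 of the 167 in the liver, and was not run for the difference. The intensity trend gave 1 and the fit of all 16 arrays 3 of the 167 in the colon.

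The labels do not say whether a replicate number marks the same pig in both tissues. The deviations of same-numbered arrays correlated at 0.146 to 0.329 between Colon_CS and Liver_CS, all 4 above 0.1, and at -0.0724 to 0.129 between Colon_RPS and Liver_RPS, so not every pair deviated together and the numbers were not used as pairs. Between the diets the colon correlations were -0.482 to 0.477 and those of the liver -0.134 to 0.0708. With a replicate block the list probes called were 2 in the colon and 6 in the liver, and 10 of the 17 passed between the tissues, TNF (A_72_P538206) being added. That block joined arrays of the same number across the diets, which are different pigs, so it is no check of pairing by pig. No result changed its direction past a threshold. The cause of these changes was not tested. Probes near background limit the readings of IL1B2, IL6 and, in the liver, IL1A.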
